A study of Mus musculus with 14 samples.

Results

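The genes described here are 10 carriers, channels and receptors with which the proximal tubule takes up glucose, phosphate, sodium, water and filtered protein: Slc5a1, Slc5a2, Slc2a1, Slc2a2, Slc34a1, Slc34a3, Slc9a3, Lrp2, Cubn and Aqp1. They were chosen by symbol and matched to the Ensembl IDs of the deposited counts through the GENCODE mouse annotation. All 10 were found among the 56980 gene IDs, and all 10 were among the 22339 genes left after genes with 10 counts or fewer over all libraries had been removed.

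The counts came from whole kidneys of 14 female mice, wild type and 18 weeks old, of the outbred CD-1 stock. Term mice were born naturally and stayed with their own mothers. They were either untreated (T-ND, n = 4) or received streptozotocin (STZ), a toxin of the insulin-producing beta cells, in early adulthood (T-D, n = 4). Preterm mice were delivered by Caesarean section a day before term and raised by foster mothers that were given acepromazine, and they too were either untreated (PT-ND, n = 3) or received STZ (PT-D, n = 3). Preterm birth therefore stands for all of these differences. Some PT-D mice of the study received STZ a second time because their glucose had stayed low, and the labels do not say which. By the study's methods, the mice were injected with cationic ferritin before the kidneys were taken. Each library is a separate mouse. STZ enters cells through GLUT2, which the proximal tubule makes too, so that diabetes and a direct action of STZ on the kidney cannot be told apart.

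The proximal tubule reabsorbs most of the glucose, phosphate, bicarbonate and protein that the glomerulus filters. Glucose enters the cell at the apical side through the sodium-coupled carriers SGLT2 (Slc5a2) in the early segment and SGLT1 (Slc5a1) in the late segment. It leaves at the basolateral side through GLUT2 (Slc2a2) and GLUT1 (Slc2a1), and GLUT1 is also made in later parts of the nephron. Phosphate enters through NaPi-IIa (Slc34a1) and NaPi-IIc (Slc34a3), sodium is exchanged for protons by NHE3 (Slc9a3), and water crosses through aquaporin-1 (Aqp1), which is also made in the thin descending limb. Filtered proteins are taken up by the receptors megalin (Lrp2) and cubilin (Cubn).

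The libraries held between 16697246 and 28673176 counts on genes, and the 10 genes had between 530 and 123881 counts in any library. Together they made up 0.474% to 0.885% of all gene counts. T-D replicate 4 stood apart from its group, with a median correlation of 0.977 with the other T-D libraries, the lowest of all libraries, and the fewest genes detected (19589). The names of 5 libraries carry a suffix a, which the labels do not explain: replicates 1 and 2 of T-ND, 1 of T-D, 2 of PT-ND and 1 of PT-D. All 24 other markers of the proximal tubule were detected. Their summed level without Kap, an androgen-regulated transcript that alone reached 21450 CPM (counts scaled to a common library size), was 13270 to 18950 CPM in PT-D and between 20600 and 26450 CPM in the other groups. In whole kidney, fewer cells of a type and less RNA per cell cannot be told apart.

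Compared per kilobase of exon, so that long and short genes can be set side by side, Slc34a1 was the most abundant of the 10 genes and Slc2a1 the least. The length is that of all annotated exons of a gene merged, not of a single transcript, so that the order also depends on the annotation. Slc34a1 reached 636 ± 122 normalized CPM per kilobase (SD, n = 14 libraries). Aqp1 followed with 320 ± 83.5 and Slc5a2 with 142 ± 23.3. Lrp2 (90.9 ± 16.8) and Slc34a3 (45.8 ± 10.99) took the middle of the order. The lower places were held by Slc5a1 (22.4 ± 7.47), Cubn (19.2 ± 3.20), Slc2a2 (18.2 ± 4.85), Slc9a3 (12.8 ± 1.57) and Slc2a1 (8.66 ± 2.52). The order was the same in all 14 libraries for Aqp1 over Slc5a2 and for Lrp2 over Slc34a3. Slc5a1 exceeded Cubn in 9 of 14 libraries and Cubn exceeded Slc2a2 in 10 of 14, so these neighbours did not differ beyond their spread. Across libraries, Slc9a3 varied least, with a coefficient of variation of 12.3%, and Slc5a1 varied most, with 33.4%.

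**Figure D1:**
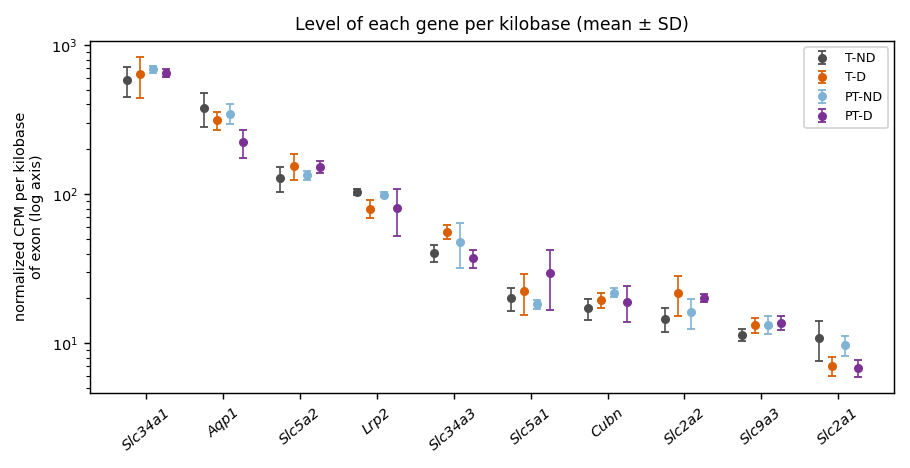
Level of each of the 10 genes per kilobase of exon in normalized CPM (vertical log axis), as mean and SD of the 4 T-ND, 4 T-D, 3 PT-ND and 3 PT-D libraries, in order of their mean over all libraries. Slc34a1 stands highest with 636 and Slc2a1 lowest with 8.66, and within a gene the groups lie close to each other beside the distance between genes.

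Levels of Slc5a2, Slc2a2 and Slc34a1 varied together over the 14 libraries, with a Pearson correlation of log2 CPM of 0.76 for Slc5a2 with Slc2a2, 0.75 for Slc5a2 with Slc34a1 and 0.64 for Slc2a2 with Slc34a1. Slc2a1 ran against Slc5a2 (−0.79). These values describe libraries that share groups, normalization and tissue makeup. The 200 bases before the annotated start of the canonical transcript are shown for these 4 genes from the GRCm39 genome, 5′ to 3′ on the strand of the gene, with motif matches on either strand in capitals. The windows are chr7:127864648-127864847 for Slc5a2, chr3:28751851-28752050 for Slc2a2, chr13:55547306-55547505 for Slc34a1 and chr4:118965708-118965907 for Slc2a1, all on the plus strand. The canonical starts of Slc5a2 and Slc34a1 lie inside the gene as annotated, downstream of its outermost start.
Slc5a2: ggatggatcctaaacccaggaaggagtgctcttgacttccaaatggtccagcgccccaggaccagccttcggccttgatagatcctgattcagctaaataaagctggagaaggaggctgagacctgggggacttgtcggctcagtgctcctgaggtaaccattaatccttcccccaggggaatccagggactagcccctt
Slc2a2: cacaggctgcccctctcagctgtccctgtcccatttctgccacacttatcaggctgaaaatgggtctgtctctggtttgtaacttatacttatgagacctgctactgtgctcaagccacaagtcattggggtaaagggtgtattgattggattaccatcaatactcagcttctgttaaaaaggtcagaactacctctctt
Slc34a1: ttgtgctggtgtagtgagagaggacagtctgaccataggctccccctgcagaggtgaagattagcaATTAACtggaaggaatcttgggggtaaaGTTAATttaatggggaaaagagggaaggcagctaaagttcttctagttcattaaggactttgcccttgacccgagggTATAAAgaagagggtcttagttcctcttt
Slc2a1: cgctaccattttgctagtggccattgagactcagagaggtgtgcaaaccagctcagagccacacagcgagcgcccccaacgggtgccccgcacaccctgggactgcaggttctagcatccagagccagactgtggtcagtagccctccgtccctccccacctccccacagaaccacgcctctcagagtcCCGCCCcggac

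The motifs searched were GTTAAT (part of the site of HNF1 factors, which are active in proximal tubule), CAAAGG (a core of HNF4 sites), GGGCGG (the GC box) and TATAAA (the TATA box), each on both strands. Matches of different motifs did not overlap in the windows shown. The Slc34a1 window held GTTAAT on both strands (2 matches) and TATAAA at 29 bases before the start. GTTAAT occurred in 4.81% of the 21770 windows of protein-coding genes, TATAAA in 9.57%, GGGCGG in 34.8% and CAAAGG in 14.7%. Slc2a1 held a GC box at 11 bases before its start, and neither Slc5a2 nor Slc2a2 held any of the 4 motifs. Among the other members, GGGCGG was found 3 times before Slc9a3 and 2 times before Lrp2, and no motif was found before Slc5a1, Slc34a3, Cubn or Aqp1. The windows of Slc34a1 (45.0% G or C) and Slc2a2 (45.5%) were poorer in G and C than that of Slc2a1 (63.5%), against a median of 54.5% over all windows. A match describes letters and is not evidence of binding.

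Over the 8 comparisons, 1 of the 10 genes passed the test in 1 comparison: Slc2a1 fell with STZ when term and preterm mice were averaged (edgeR quasi-likelihood test, Benjamini-Hochberg adjusted p = 0.0490 over all genes tested). An adjusted p under 0.05 was needed to pass. The background of this comparison was 3.01% of 22339 genes called (1.65% higher, 1.37% lower), and 5 of the 10 genes had an unadjusted p under 0.05. Under DESeq2, 2 of them passed, beside 1891 of 16683 genes.

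In each of the other comparisons, edgeR called 0 of the 10 genes. For PT-D against T-ND, the background was 2.76% of genes (1.61% higher, 1.15% lower), and 3 members had an unadjusted p under 0.05. DESeq2 called 3 members there, beside 2802 of 15787 genes. PT-D against PT-ND had by far the widest background, 12.9% of genes (7.14% higher, 5.78% lower), with 3 members under the unadjusted threshold. DESeq2 called 2 members, beside 4219 of 15798 genes. Few genes of any kind were called by edgeR for PT-D against T-D (0.193%), T-D against T-ND (0.0673%) and PT-ND against T-ND (0.0809%). Of the members, 2, 4 and 1 had an unadjusted p under 0.05 in these. DESeq2 called 1, 0 and 0 members, beside 2284 of 14488, 467 of 16625 and 307 of 15315 genes. The interaction is the log2 fold change with STZ in preterm mice minus that in term mice. It called 6.23% of genes (2.82% higher, 3.41% lower), with 1 member under the unadjusted threshold. DESeq2 called 1 member for the interaction, beside 3138 of 14958 genes. Preterm birth averaged over STZ called 0.0537% of genes, with 0 members under the unadjusted threshold and 0 called by DESeq2. Comparisons that share a group, such as PT-D, share its libraries.

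**Figure D2:**
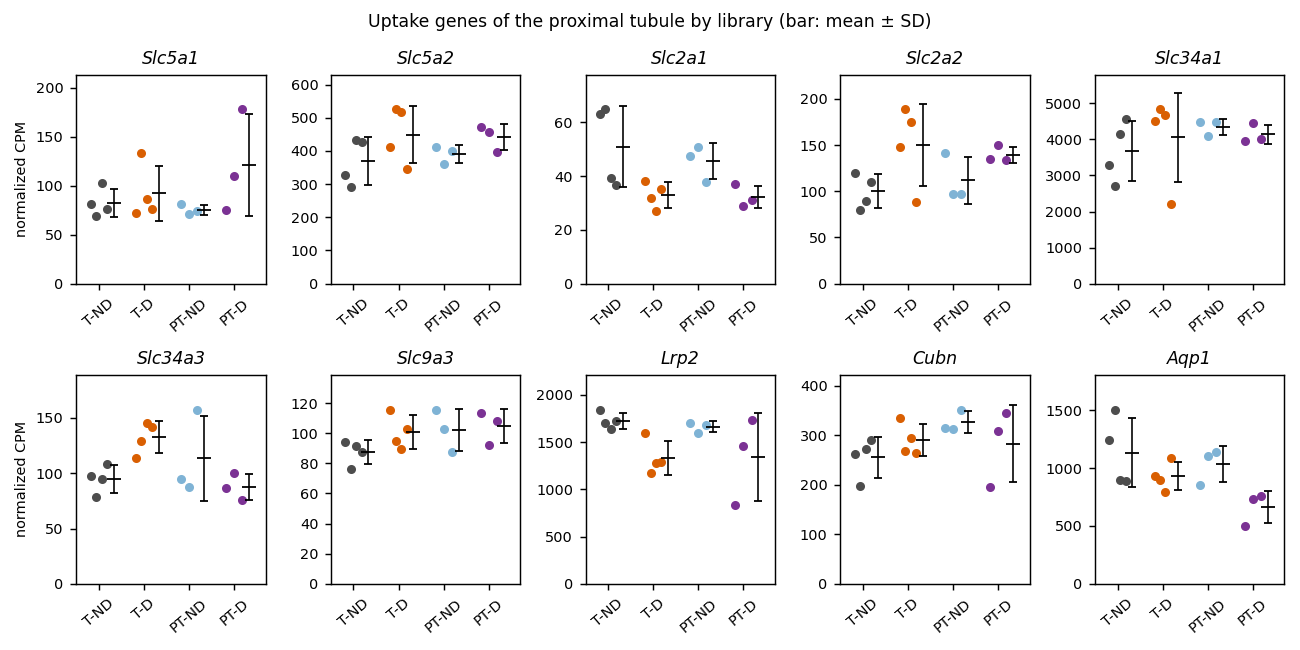
Normalized CPM of each of the 10 genes (vertical axis from 0) in every library of the 4 groups, with a bar for the mean and SD of the group. The STZ groups of Slc2a1 sit low, at 26.97 to 38.1 CPM, and Slc34a1 of T-D holds a library at 2211 CPM apart from the other 3 at 4524 to 4834.

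Of the glucose carriers, the basolateral pair moved apart with STZ. Slc2a1 (chr4:118965908-118996365) had 63.0, 64.8, 39.3 and 36.6 CPM in the T-ND libraries and 38.1, 31.9, 26.97 and 35.1 in the T-D libraries. It had 47.5, 50.99 and 37.98 CPM in PT-ND and 36.9, 28.8 and 30.99 in PT-D. The preterm groups did not overlap, and the term groups overlapped only between T-ND replicate 4 and T-D replicate 1. Averaged over term and preterm mice, the log2 fold change was −0.56 (SE 0.15, 95% interval −0.87 to −0.25), or a fold of 0.68. The effect had the same sign in term (−0.64, SE 0.21, adjusted p = 0.289) and preterm mice (−0.50, SE 0.17, adjusted p = 0.0710), and the interaction of 0.13 (95% interval −0.49 to 0.75) was not significant in the edgeR fit. The call is close to the threshold. With the library-name suffix as a covariate, the change was −0.49 (adjusted p = 0.0288). It kept its sign but lost the call in 10 of 14 fits that each left out a library, with adjusted p between 0.0174 and 0.130.

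Markers of later nephron segments are given beside this result, since they too make GLUT1. Uromodulin (Umod), the main secreted protein of the thick ascending limb, had 2478, 2585, 2022 and 1790.0 CPM in T-ND and 1358, 861, 882 and 1718 in T-D. Umod also fell with STZ averaged over birth (−0.83, SE 0.20, edgeR adjusted p = 0.0372). All 7 loop of Henle markers had a negative log2 fold change in that comparison, with a median of −0.51 beside 0.01 over all genes tested. Of these, 1 was called, beside 1.37% of all genes called lower. Their summed level was 3682 to 4718 CPM in T-ND, 1864 to 3131 in T-D, 2783 to 3734 in PT-ND and 1448 to 3239 in PT-D. Of the 7 collecting duct markers, 6 were lower. The anion exchanger Slc4a1 was the 1 called (−1.0, SE 0.23, edgeR adjusted p = 0.0318), beside the same 1.37% of all genes. The summed level of these 7 was 648 to 1106 CPM in T-ND, 562 to 701 in T-D, 622 to 1034 in PT-ND and 343 to 829 in PT-D. The distal tubule markers went the other way with STZ averaged over birth. Of these 5, 4 were higher and 1 lower, with a median of 0.34, and 0 were called. The water channel Aqp2 of the collecting duct was highest in T-ND replicates 1 and 2 (725 and 570.4 CPM) and in PT-ND replicate 2 (673), which also held the highest Slc2a1 of their groups. In PT-D, replicate 1 was highest in both (382 CPM of Aqp2). In T-D it was not so: Aqp2 was highest in T-D replicate 2 (459 CPM), where Slc2a1 was 31.9, and lower in T-D replicate 1 (385), where Slc2a1 was 38.1. In each group the highest Slc2a1 lay in a library with the suffix a, of which T-ND held 2 and each other group 1. The fit with the suffix as a covariate is given above. The part of these segments in the Slc2a1 result was not tested.

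Slc2a2 (chr3:28752051-28785508) had 119.7, 80.2, 89.9 and 110.3 CPM in T-ND and 148, 189, 175 and 88.1 in T-D. In PT-ND it had 141, 96.8 and 97.0 CPM, and in PT-D 135, 149.7 and 134. In term mice 3 of the 4 T-D libraries lay above all T-ND libraries, and T-D replicate 4 lay among them. The change with STZ averaged over birth was 0.45 (SE 0.16, 95% interval 0.11 to 0.79) and did not pass in edgeR (adjusted p = 0.124). Without T-D replicate 4, it was 0.55 and passed in edgeR (adjusted p = 0.0209).

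Within a library, the ratio of Slc2a2 to Slc2a1 counts does not depend on library size. It is not corrected for the length of the transcripts, which is the same in every library. The ratio was 1.90, 1.24, 2.29 and 3.02 in T-ND and 3.89, 5.91, 6.49 and 2.51 in T-D. In the preterm groups it was 2.97, 1.90 and 2.55 without STZ and 3.67, 5.204 and 4.33 with STZ. The ratio was thus higher with STZ, with no overlap between the preterm groups, and 3 of 4 T-D libraries above every T-ND library. The mean difference was 0.99 on the log2 scale (SE 0.26), 1.13 in term and 0.84 in preterm mice, with an exact permutation p of 0.00286, two-sided, and an adjusted p of 0.0114 over the 8 ratio tests. Among the 9 libraries without the suffix a it was 0.79 (exact permutation p = 0.050, adjusted p = 0.200, where the smallest p that 60 arrangements allow is 0.0167), and among the 5 with the suffix it was 1.15, with no test. Preterm birth gave a difference of 0.13 (exact permutation test, adjusted p = 0.805).

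The apical carriers showed no call. Slc5a2 (chr7:127864829-127871602) had 327, 291, 434 and 426 CPM in T-ND and 411, 525, 516 and 344 in T-D. Its preterm values were 410.4, 360.0 and 399 CPM in PT-ND and 473, 456 and 397 in PT-D. The groups overlapped in both strata. STZ averaged over birth gave 0.23 (95% interval −0.04 to 0.50), so that a doubling (1 on the log2 scale) lies outside the interval. The gene shares 20.6% of its exon bases with Rusf1 on the opposite strand, and reads there were left uncounted.

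Slc5a1 (chr5:33261563-33320214) had 81.1, 69.4, 103 and 76.3 CPM in T-ND, 72.1, 133, 86.6 and 76.4 in T-D and 80.8, 70.7 and 73.8 in PT-ND. In PT-D it had 75.6, 109.7 and 178 CPM. Its spread in PT-D was thus the widest of any group, and PT-D replicate 3 held the highest level of all libraries. PT-D against PT-ND gave 0.69 (95% interval 0.12 to 1.25, edgeR adjusted p = 0.103). Without PT-D replicate 3 it was 0.30 (adjusted p = 0.399), and without PT-D replicate 1 it was 0.94 and passed in edgeR (adjusted p = 0.0172). The ratio of Slc5a2 to Slc5a1 was between 3.94 and 5.96 in term mice, between 5.08 and 5.41 in PT-ND, and 6.26, 4.15 and 2.23 in PT-D. It did not differ with STZ (−0.14, SE 0.21, exact permutation test, adjusted p = 0.805) or preterm birth (−0.07, adjusted p = 0.805, exact permutation test) beyond the spread between libraries.

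**Figure D3:**
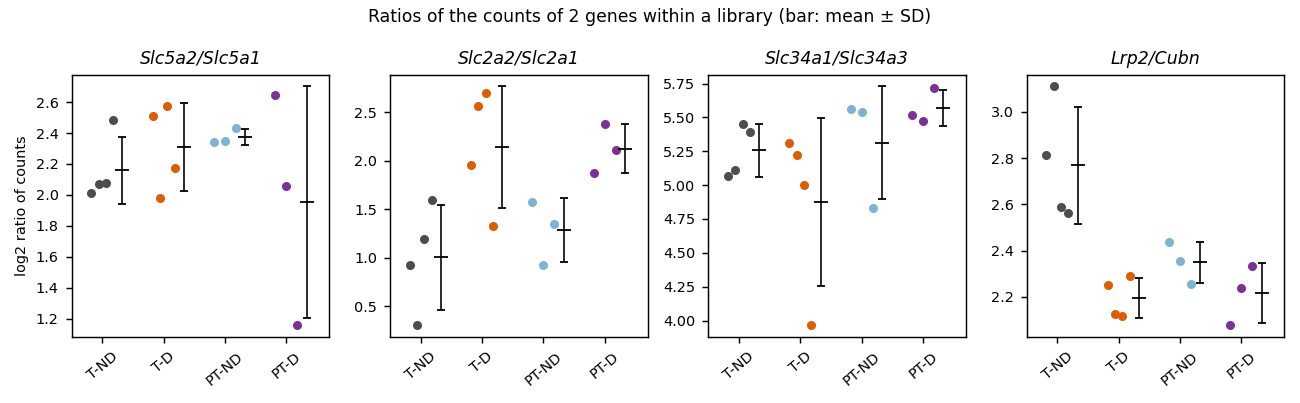
Log2 ratio of the counts of 2 related genes within each library (vertical axis, not starting at 0) for the 4 groups, with a bar for the mean and SD. Slc2a2/Slc2a1 sits higher and Lrp2/Cubn lower in the STZ groups, with mean differences of 0.99 and −0.35, and the other 2 ratios do not separate the groups.

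Among 13 other genes of glucose uptake, 1 was called in PT-D against PT-ND, a smaller share than the 12.9% of all genes called there. Pdzk1ip1 encodes MAP17, a partner protein of SGLT2. It had 642, 725 and 1090.0 CPM in PT-ND and 496, 491 and 381 in PT-D, without overlap, and fell by 0.84 on the log2 scale (SE 0.22, edgeR adjusted p = 0.0288). In term mice it had 581 ± 69.1 CPM in T-ND and 840.1 ± 258 in T-D (SD, n = 4 each), and the interaction of −1.38 (SE 0.32) passed (edgeR adjusted p = 0.0301). SGLT2 mRNA itself was 0.18 higher in that comparison of preterm mice, with a 95% interval of −0.15 to 0.51. The median log2 fold change of the 13 genes was −0.15 for PT-D against PT-ND, beside 0.05 over all genes tested.

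Of the phosphate carriers, Slc34a1 (chr13:55546000-55563413) had 3278, 2708, 4155 and 4554 CPM in T-ND and 4524, 4834, 4667 and 2211 in T-D. It had 4490.0, 4102 and 4478 CPM in PT-ND and 3960.0, 4443 and 4015 in PT-D. The low values were those of T-ND replicates 1 and 2 and T-D replicate 4. STZ averaged over birth gave 0.04 (95% interval −0.33 to 0.40), and 0.14 without T-D replicate 4. Preterm birth averaged over STZ gave 0.14 (95% interval −0.22 to 0.50).

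Slc34a3 (chr2:25118910-25124376, minus strand) had 97.7, 78.3, 94.7 and 108 CPM in T-ND and 114, 129.5, 146 and 141 in T-D, without overlap. In PT-ND it had 95.1, 87.9 and 157 CPM, and in PT-D 86.4, 100.1 and 76.2, all below the T-D libraries. In mean level, the STZ group thus lay above its control in term mice and below it in preterm mice, although the preterm groups overlapped. PT-ND replicates 1 and 2 lay within the range of PT-D, and PT-ND replicate 3 held the highest level of all libraries. The log2 fold change was 0.47 in term mice (SE 0.15, edgeR adjusted p = 0.273) and −0.37 in preterm mice (SE 0.22, edgeR adjusted p = 0.293). The interaction of −0.86 (95% interval −1.43 to −0.28) missed the threshold in edgeR (adjusted p = 0.0651) and passed in DESeq2 (−0.90, adjusted p = 0.020). PT-D against T-D gave −0.60 (SE 0.17), which did not pass in edgeR (adjusted p = 0.0938) and passed in DESeq2 (adjusted p = 0.0103). These comparisons share the PT-D and T-D libraries.

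The ratio of Slc34a1 to Slc34a3 was 33.5, 34.6, 43.9 and 42.1 in T-ND and 39.7, 37.3, 32.1 and 15.6 in T-D. In preterm mice it was 47.2, 46.6 and 28.4 in PT-ND and 45.8, 44.4 and 52.7 in PT-D. Neither STZ (−0.06 on the log2 scale, SE 0.22, adjusted p = 0.805) nor preterm birth (0.37, adjusted p = 0.225) moved it beyond the spread in the exact permutation test. The preterm difference passed when PT-ND replicate 3 was left out (0.49, exact permutation test, adjusted p = 0.0305).

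Of 13 other genes of phosphate handling, 2 were called in PT-D against PT-ND, near the 12.9% of all genes, and 1 in PT-D against T-ND, beside 2.76% of all genes. Slc20a1 (PiT-1), a widely expressed sodium-phosphate carrier, had 37.6, 53.8, 52.8 and 39.5 CPM in T-ND and 83.8, 84.6 and 128 in PT-D, and rose by 1.09 (SE 0.19, edgeR adjusted p = 0.0295). The parathyroid hormone receptor Pth1r fell from 728 ± 80.0 CPM in PT-ND to 475 ± 49.9 in PT-D (SD, n = 3 each, −0.62, SE 0.16, edgeR adjusted p = 0.0306). Cyp24a1, the enzyme that degrades active vitamin D, rose from 24.9 ± 7.29 to 74.6 ± 50.3 CPM in the same comparison (1.58, SE 0.40, edgeR adjusted p = 0.0278). Its level in T-ND was 107 ± 85.2 CPM, above that of PT-D, and its spread between mice was wide. The median of the 13 genes in that comparison was 0.25.

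The sodium-proton exchanger Slc9a3 (chr13:74269360-74317561) was the steadiest of the 10 genes. It lay between 76.2 and 94.0 CPM in T-ND, 89.3 and 116 in T-D, 87.8 and 116 in PT-ND and 92.1 and 114 in PT-D. The groups overlapped. STZ gave 0.12 (95% interval −0.10 to 0.33) and preterm birth 0.14 (95% interval −0.07 to 0.35), each averaged over the other factor, and neither passed in edgeR (adjusted p = 0.552 and 0.597).

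Aqp1 (chr6:55313068-55325540) had 1244, 1504, 899 and 889 CPM in T-ND, 935, 901, 794 and 1089 in T-D and 854, 1104 and 1143 in PT-ND. In PT-D it had 501, 735 and 756 CPM, below every other library. With all libraries, no comparison passed in edgeR with TMM normalization and the filter on low counts. PT-D against PT-ND gave −0.64 (95% interval −1.08 to −0.20, adjusted p = 0.0589), and PT-D against T-ND gave −0.78 (95% interval −1.29 to −0.28, adjusted p = 0.0785). Both passed in DESeq2 (adjusted p = 0.00818 and 0.0119). Both also passed in edgeR without the filter (adjusted p = 0.0151 and 0.0436). PT-D against PT-ND passed in edgeR with upper quartile normalization too (adjusted p = 0.0378). Without PT-D replicate 1, which held the lowest level, PT-D against PT-ND gave −0.47 (edgeR adjusted p = 0.118). Without PT-ND replicate 1 it was −0.77 and passed (edgeR adjusted p = 0.0329), and without T-ND replicate 3 PT-D against T-ND was −0.88 and passed (edgeR adjusted p = 0.0377). STZ averaged over birth gave −0.46 (95% interval −0.78 to −0.15, edgeR adjusted p = 0.0958). In PT-D against PT-ND, 0 of 7 loop of Henle markers were called, with a median of −0.47, and 6 of 24 other proximal tubule markers fell. Of all genes, 5.78% were called lower there. Their part in these values was not tested.

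Around these 2 genes, 5 of 12 other genes of sodium, bicarbonate and water transport fell and 0 rose in PT-D against PT-ND, beside 5.78% of all genes lower and 7.14% higher. They were Cldn10, a claudin of the tubule (209.7 ± 36.9 CPM in PT-ND and 71.5 ± 11.1 in PT-D, −1.55, SE 0.18, edgeR adjusted p = 0.00214), the exchanger Slc9a8 (−1.45, SE 0.32), the membrane carbonic anhydrase Car4 (−0.93, SE 0.18), the aquaporin Aqp11 (−0.84, SE 0.16) and the sodium pump regulator Fxyd2 (−0.80, SE 0.22). Aqp11 had 62.4, 59.5 and 72.2 CPM in PT-ND and 35.3, 41.6 and 31.4 in PT-D. Car4 had 147, 106 and 164 CPM in PT-ND and 81.5, 69.0 and 68.7 in PT-D. In neither gene did the groups overlap. The interaction was also called for Car4 (−1.34), Aqp11 (−1.19) and Fxyd2 (−1.14). The median of the 12 genes was −0.53 in PT-D against PT-ND and 0.08 in T-D against T-ND.

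**Figure D4:**
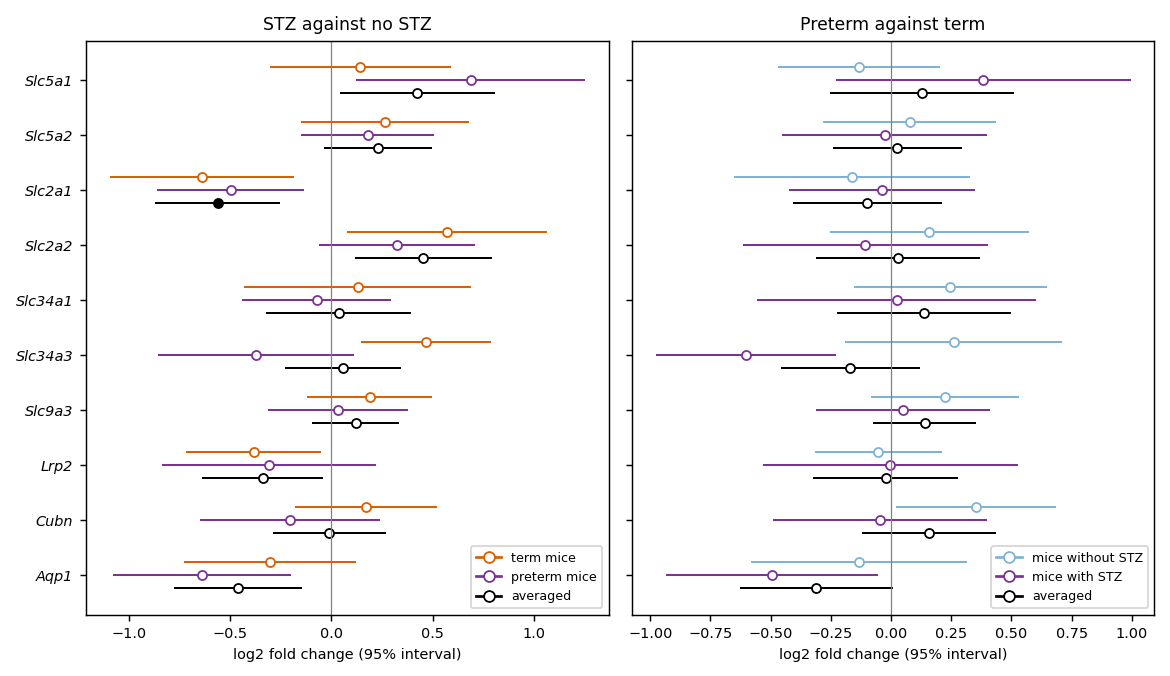
Log2 fold change of each of the 10 genes (horizontal axis) with its 95% interval, for STZ against no STZ (left) and preterm against term (right), in each stratum and averaged. A filled point marks an adjusted p under 0.05. The filled point is that of Slc2a1 with STZ averaged over birth (−0.56), and all other points are open.

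The protein receptors showed no call as single genes. Lrp2 (chr2:69254682-69416409, minus strand) had 1844, 1704, 1636 and 1719 CPM in T-ND and 1596, 1172, 1278 and 1295 in T-D, without overlap. It had 1708, 1599 and 1683 CPM in PT-ND and 831, 1458 and 1736 in PT-D. PT-D replicates 1 and 2 lay below every PT-ND and T-ND library, and PT-D replicate 3 lay above every PT-ND library. The change was −0.39 in term mice (SE 0.15, edgeR adjusted p = 0.368) and −0.31 in preterm mice (SE 0.24, edgeR adjusted p = 0.433). Without PT-D replicate 1, the latter was −0.06.

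Cubn (chr2:13281149-13496624, minus strand) had 262, 197, 272 and 291 CPM in T-ND and 335, 268, 294 and 265 in T-D. In PT-ND it had 316, 313 and 352 CPM, and in PT-D 197, 309 and 345. The lowest libraries were T-ND replicate 2 and PT-D replicate 1, and the groups with and without STZ overlapped. STZ averaged over birth gave −0.01 (95% interval −0.29 to 0.27).

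The ratio of Lrp2 to Cubn counts was 7.03, 8.63, 6.01 and 5.90 in T-ND and 4.76, 4.36, 4.34 and 4.89 in T-D. It was 5.41, 5.11 and 4.78 in PT-ND and 4.22, 4.72 and 5.04 in PT-D. Every T-ND library lay above every other library, while the preterm groups overlapped. The ratio was lower with STZ on average (−0.35 on the log2 scale, SE 0.09, exact permutation p = 0.00286, adjusted p = 0.0114). The difference was −0.57 in term and −0.13 in preterm mice. These 2 values differed by 0.44 (SE 0.18), a difference that was not tested. Among the 9 libraries without the suffix a the change was −0.23 (exact permutation p = 0.050, adjusted p = 0.200), and among the 5 with it −0.49, with no test. In a limma fit with the replicate number as a block, the change did not pass (−0.35, adjusted p = 0.0981). Preterm birth gave −0.20 (exact permutation test, adjusted p = 0.218).

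Of 11 other genes of receptor-mediated endocytosis, 2 were called in PT-D against PT-ND, both lower, beside 5.78% of all genes lower there. The interaction called 2 of the 11, both negative, beside 3.41% of all genes. Fcgrt, the neonatal Fc receptor that recycles albumin and immunoglobulin G, had 105, 128 and 104 CPM in PT-D and between 162 and 399 in the 11 other libraries. It fell by 1.19 against T-ND (SE 0.17, edgeR adjusted p = 0.0182), by 1.57 against T-D (SE 0.20, edgeR adjusted p = 0.00930) and by 1.13 against PT-ND (SE 0.23, edgeR adjusted p = 0.0132). The interaction was −1.51 (SE 0.31, edgeR adjusted p = 0.0218). These comparisons share the PT-D libraries. Lrpap1, the chaperone of megalin, fell from 615 ± 97.0 CPM in PT-ND to 366 ± 64.5 in PT-D (SD, n = 3 each, −0.75, SE 0.18, edgeR adjusted p = 0.0259). Amnionless (Amn), which carries cubilin to the membrane, was called in the interaction (−0.91, SE 0.25, edgeR adjusted p = 0.0463), with 241 ± 60.1 CPM in PT-ND and 162 ± 9.83 in PT-D. The median of the 11 genes in PT-D against PT-ND was −0.28.

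Among 7 transcription factors of the proximal tubule, Esrra, a regulator of mitochondrial genes, fell in PT-D against PT-ND (−0.67, SE 0.16, edgeR adjusted p = 0.0204) and in the interaction (−0.91, SE 0.19, edgeR adjusted p = 0.0244). Esrra was the 1 factor called in each, beside 5.78% and 3.41% of all genes lower. Of the 7 factors, 3 were higher and 4 lower in PT-D against PT-ND, with a median of −0.08. In the interaction, 6 were positive and 1 negative, with a median of 0.17. The HNF1 and HNF4 factors did not pass. Of the 24 other proximal tubule markers, 6 fell and 0 rose in PT-D against PT-ND, beside 5.78% of all genes lower and 7.14% higher, with a median of −0.56 beside −0.14 for the 10 uptake genes and 0.05 for all genes tested. The 4 with the smallest p were Spp2 (−0.99, SE 0.20), the amino acid carriers Slc6a19 (−0.79, SE 0.16) and Slc7a9 (−0.68, SE 0.15), and the aminoacylase Acy3 (−1.09, SE 0.28), with edgeR adjusted p between 0.0117 and 0.0278. The difference between 0 of 10 and 6 of 24 was not tested. In the interaction, 5 of the 24 were called, each negative, beside 3.41% of all genes, among them Slc7a9 (−0.93) and the carrier Slc7a7 (−1.17). With STZ averaged over birth, 2 of the 24 fell, beside 1.37% of all genes: the amino acid carrier Slc7a13 (−1.68, SE 0.40) and the fatty acid carrier Slc27a2 (−0.56, SE 0.14).

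Some markers of other cell types differed in PT-D. In PT-D against PT-ND, 4 of 5 podocyte markers, 2 of 6 endothelial markers, 1 of 6 leukocyte markers, 1 of 4 stromal markers and 4 of 6 tubular injury markers rose, beside 7.14% of all genes, and 2 of 7 collecting duct markers fell, beside 5.78%. Of the leukocyte markers, 4 of 6 had a negative log2 fold change, and their median was −0.25. So had 2 of the 6 endothelial markers (Emcn −0.29, Plvap −0.14) and 1 of the 4 stromal markers (Dcn −0.15). The medians of these 2 lists were both 0.56. The podocyte gene Synpo rose by 1.15 (SE 0.23) and the endothelial gene Cdh5 by 1.37 (SE 0.23). The leukocyte gene Ptprc rose by 0.94 (SE 0.28), the pericyte gene Pdgfrb by 1.13 (SE 0.25) and the injury gene Lcn2 by 2.77 (SE 0.31). The summed podocyte level was 496 to 658 CPM in PT-D and between 149.5 and 475 in the other groups, and the summed endothelial level was 424 to 516 CPM in PT-D and between 202 and 457 in the others. Neither the distal tubule nor the red blood cell list had a call in any comparison. Their smallest p belonged to Trpm6 (0.59 with STZ averaged, edgeR adjusted p = 0.167), Slc12a3 (0.84, adjusted p = 0.146), Hba-a1 (1.77, adjusted p = 0.0788) and Hbb-bs (1.59, adjusted p = 0.117), the last 3 in PT-D against PT-ND. A further red blood cell gene, Hba-a2, had 0 counts in every library and could not be tested. The injury marker Havcr1 (KIM-1) had 130.4, 122, 64.5 and 2.82 CPM in T-ND and 4.82, 79.1 and 64.9 in PT-D, so that it was high in 3 untreated term libraries. In the other 2 groups it was between 1.96 and 9.99 CPM. How these markers bear on the uptake genes was not tested.

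**Figure D5:**
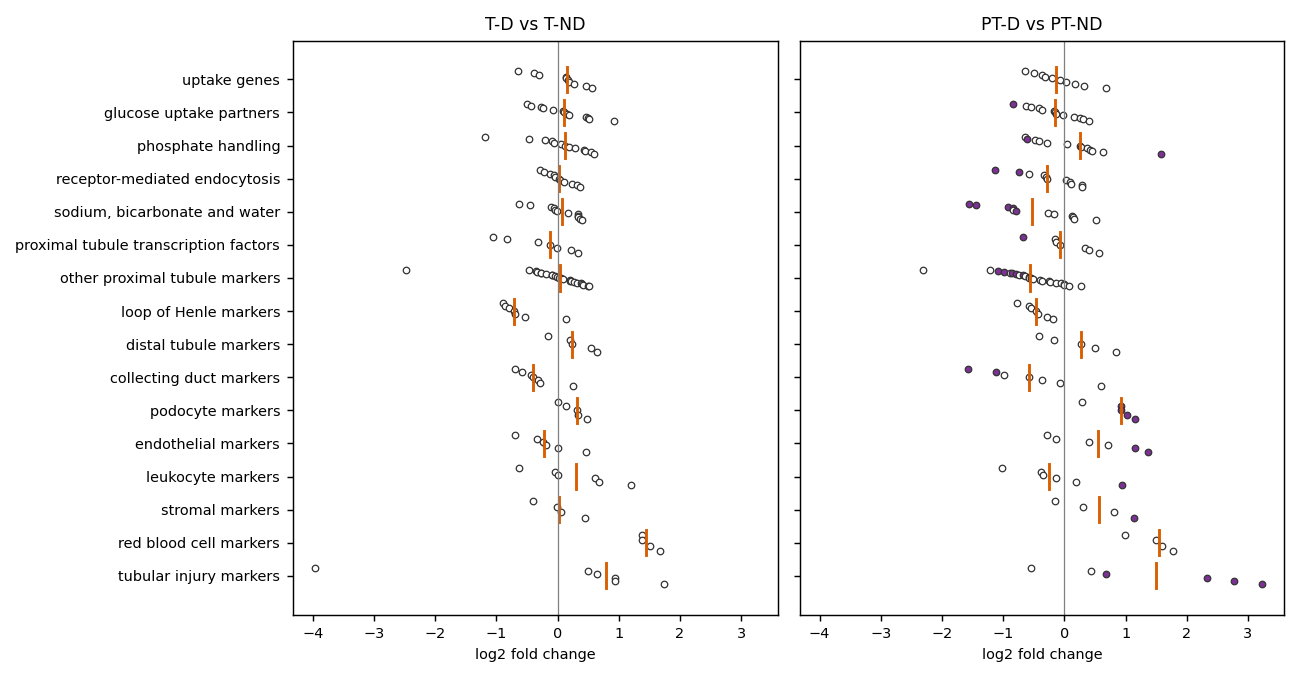
Log2 fold change (horizontal axis) of every gene of each list for T-D against T-ND (left) and PT-D against PT-ND (right), a point for a gene, filled where the adjusted p is under 0.05, with a bar at the median of the list. On the right, the 10 uptake genes hold no filled point and a median of −0.14, and the other proximal tubule markers hold 6 and a median of −0.56.

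The size of a library affects each of these values through its scaling. When libraries were scaled so that the 24 other proximal tubule markers had an equal mean log2 level, the median log2 fold change of all genes in PT-D against PT-ND moved from 0.05 to 0.69. Slc5a1 (1.26), Slc5a2 (0.85) and Slc2a2 (0.96) were then called, beside 5585 of all 22303 genes called higher and 177 lower. Relative to that median they were 0.58, 0.16 and 0.27 higher. Slc2a1 was 0.18 in that comparison, against −0.50 with the usual scaling, and 0.51 below the median of all genes (−0.51). With STZ averaged over birth, Slc2a1 was then −0.20 and lost its call (edgeR adjusted p = 0.457), and relative to the median of all genes it was −0.55. The within-library ratios do not change with the scaling.

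For each of the 10 genes, the genes with the most similar pattern over the 14 libraries were sought among 12155 genes whose mean normalized count was 50 or more. Frzb, Kyat3 and Slc39a8 were most like Aqp1, with Pearson correlations of log2 CPM of 0.97, 0.97 and 0.96. Alpl (0.97) and Man2b1 (0.92) were among the 3 genes most like Slc34a1. For Slc2a1 the genes were Stk32a (0.91), Slc4a11 (0.90) and Ranbp3l (0.90), and for Slc2a2 they included Nln (0.85) and Mical3 (0.83). Slc5a2 was most like Trappc9, Rhbdf1 and Bco1 (0.90 to 0.92), and Slc5a1 most like Arap2, Esyt2 and Ehmt2 (0.88 to 0.90). The closest to Slc34a3 were Cops9, Uqcrq and Ifi30 (0.89 to 0.91), and to Slc9a3 they were Arc, Rsrc2 and Lilrb4b (0.80 to 0.86). Lrp2 was closest to Prepl, Gcnt1 and Sh3tc2 (0.90 to 0.93), and Cubn to Ogdhl, AU040320 and Bcas3 (0.86 to 0.90). No member was among the 3 closest genes of another member. The points share groups, depth and tissue makeup.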

How the data were processed

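Whole-kidney poly(A) RNA of 14 mice was sequenced without strand. The authors trimmed the reads, aligned them to GRCm39 with STAR and deposited counts per gene of reads with a single alignment (GENCODE M36), not normalized, of which the unstranded column was used. Symbols, exon lengths and positions came from GENCODE M39, to which 56236 of 56980 IDs matched without their version. Reads on more than 1 gene or on none stayed out of library sizes; those on more than 1 gene were 6.86% to 8.09% of the reads with a single alignment.

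Levels are CPM (counts scaled for library size) after TMM normalization. The quasi-likelihood test of edgeR 4.0.16 (R 4.3.3) compared each pair of groups using only their libraries. The interaction and the averaged effects were fitted on all 14 libraries. Genes needed over 10 counts in total, and p-values were adjusted by Benjamini-Hochberg over all genes tested. SEs are the log2 fold change over the square root of F, and intervals are 95%. Ratios of counts (0.5 added to each) were tested by exact permutation within strata, two-sided, with 1400 arrangements for STZ and 1225 for preterm birth, adjusted over 8 tests. Their SEs use the pooled variance within groups. The procedures were tested on simulated data.

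The 10 genes, the 15 other lists and the ratios were chosen with earlier results of these data known. Named genes are all 10 members, up to 4 called genes per list and comparison, the 2 with the smallest p of a list without calls, and the 3 genes most like each member, of which 2 are not reported here. Fxyd2, Kap and Aqp2 and the values per library of listed genes were added after values were seen. Results were recomputed with RLE or upper quartile normalization, DESeq2 1.42.0, 2 scalings to proximal tubule markers, of which the median one was chosen after seeing the data, filterByExpr and no filter, the library-name suffix, a replicate block, a fold threshold of 1 on the log2 scale, a joint fit, and each library left out in turn. Replicate numbers were not used as pairs, because same-numbered libraries deviated from their groups with correlations of −0.19 to 0.20. No 2 libraries of a group agreed within sampling noise.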

Additional observations from a re-analysis of the deposited data

Results flagged for a closer look

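2 values stood apart from the others of their group by Dixon's test at the 95% level for 4 samples, among 28 groups of 4 values examined, where chance gives about 1 in 20. T-D replicate 4 had 2211 CPM of Slc34a1, and the other T-D libraries had 4524 to 4834 (Q = 0.882). It also held the lowest Slc2a2 of its group (88.1 CPM). T-ND replicate 4 had a ratio of Slc5a2 to Slc5a1 of 5.58, and the other T-ND libraries had 4.03 to 4.22 (Q = 0.858).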

How the results depend on the processing

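Of 1620 member fold changes recomputed, 1474 kept their direction and side of the threshold, 36 became significant, 14 lost significance and 96 changed sign without a call before or after. The counts of members called depended on the processing, and so did those of all genes. For PT-D against T-ND, the edgeR fit of the text called 616 genes, DESeq2 2802, proximal tubule scaling 3398, its median form 2003 and no filter 1341. For PT-D against PT-ND these were 2881, 4219, 5762, 5520 and 4186, and upper quartile normalization called 3056. With PT-D against T-ND (0 of 10) DESeq2 gave 3, proximal tubule scaling 3, its median form 1 and no filter 1. For PT-D against PT-ND (0) DESeq2 gave 2, upper quartile normalization 2, each proximal tubule scaling 3 and no filter 3. DESeq2 gave 1 for PT-D against T-D and for the interaction, and proximal tubule scaling 1 for the interaction. With STZ averaged (1) the fold threshold gave 0, DESeq2 2, proximal tubule scaling 4 (its median form 1, Slc2a2 in place of Slc2a1) and the replicate block 0 (Slc2a1, adjusted p = 0.0520). Under proximal tubule scaling, the calls over all genes for STZ averaged were 3782 higher and 162 lower, against 368 and 305, and the median of all genes moved from 0.01 to 0.35. The causes were not tested, except that the fold threshold only adds a condition. Leaving out single libraries, the count ranged from 0 to 1 for PT-D against T-ND, from 0 to 2 for PT-D against PT-ND and from 0 to 2 for STZ averaged. Slc2a1 stayed called there without T-ND replicate 3 or 4 or T-D replicate 1 or 4. The ratios of Slc2a2 to Slc2a1 and of Lrp2 to Cubn with STZ lost significance among the 9 libraries without the suffix a (0.79 and −0.23, both adjusted p = 0.200). The latter also lost it in a limma fit with the replicate block (−0.35, adjusted p = 0.0981). Whichever of the 14 libraries was dropped, both kept their calls (0.87 to 1.12, and −0.39 to −0.30). With single libraries dropped, the other ratios ranged from −0.31 to 0.0618 (Slc5a2/Slc5a1 with STZ), −0.24 to 0.13 (with preterm birth), −0.00299 to 0.23 (Slc2a2/Slc2a1, preterm birth), −0.18 to 0.0895 (Slc34a1/Slc34a3, STZ), 0.22 to 0.49 (preterm birth) and −0.23 to −0.14 (Lrp2/Cubn, preterm birth). Numbers paired no samples, and the block changed no other call of a member.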
